A study of Mus musculus with 20 samples.

Results

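Lyve1 and 9 further scavenger and receptor genes of the liver sinusoidal endothelium (Stab1, Stab2, Clec4g, Fcgr2b, Oit3, Mrc1, Gpr182, Flt4 and Dnase1l3) were followed across 3 doses of benzo(a)pyrene (BaP). These 10 genes, of 12986 with a probe called present in liver, were chosen by name with the results of these arrays already known. Lyve1 was selected on its difference between the 75 mg/kg/day and control mice, so that difference is described here and not tested. All 10 genes were measured, by 15 probes that were all called present.

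BaP is a polycyclic aromatic hydrocarbon that liver enzymes convert into a DNA-reactive epoxide. All mice were Muta™Mouse males of the transgenic mouse strain 40.6, aged 25 weeks, and every group, controls included, carried the lacZ transgene used for mutation assays. Controls received olive oil by oral gavage (5 mice, replicates 1 to 5). Replicates 6 to 10 were given BaP in olive oil at 25 mg/kg/day, replicates 11 to 15 at 50 mg/kg/day and replicates 16 to 20 at 75 mg/kg/day. Gavage was daily over 28 days, with 5 mice in each group. Livers were taken 3 days after the last dose, and each array held the RNA of 1 mouse. The series description gives 24 mg/kg for the lowest dose, and 25 mg/kg, as on the samples, was used. The labels name lung as well as liver, and in the control mice the hepatocyte markers albumin (Alb) and transthyretin (Ttr) lay 3.68 and 5.58 log2 units above the reference RNA.

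Liver sinusoidal endothelial cells line the fenestrated capillaries of the liver lobule and are among the most active scavenger cells of the body. They take up hyaluronan, modified proteins, collagen chains, small immune complexes and circulating chromatin through a set of endocytic receptors and secreted enzymes. Lyve1 is a hyaluronan receptor of lymphatic vessels that sinusoidal endothelium also carries, and it is used as a marker of both.

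Values are log2 ratios of liver (Cyanine 5) over a universal mouse reference RNA from 11 cell lines (Cyanine 3), after background correction and loess normalization within the array. One unit is a doubling of liver signal relative to the reference, and the ratios of different probes are not compared as levels. The 20 arrays lay on 6 slides. Slides 1 to 3 held all 4 groups, slides 4 and 5 held a 25 and a 75 mg/kg/day array each, and slide 6 held 2 control and 2 arrays of 50 mg/kg/day. All 25 mg/kg/day arrays lay at position 2 of their slide, all 75 mg/kg/day arrays at position 4, and 4 of 5 control arrays at position 1, so dose and position cannot be told apart. In the liver channel, 51.9 to 67.5% of spots stood well above background, with control replicate 4 the highest and the others at most 62.4%.

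Lyve1 was measured by 2 probes to the same transcript (chromosome 7, 110850607 to 110862953, GRCm38.p6). On the brighter probe the control arrays read 2.14, 0.64, 1.74, 2.48 and 2.25 (replicates 1 to 5), and the 25 mg/kg/day arrays read 1.98, 1.92, 3.52, 2.60 and 1.64 (replicates 6 to 10). The 50 mg/kg/day arrays read 3.98, 2.80, 2.09, 3.22 and 3.45, and the 75 mg/kg/day arrays read 3.79, 4.84, 4.64, 3.26 and 3.88. All 5 arrays of the highest dose lay above all 5 controls, 4 of 5 did so at 50 mg/kg/day, and 2 of 5 at 25 mg/kg/day. Control replicate 2 was the lowest of the 20 arrays.

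The group means of the brighter Lyve1 probe were 1.85 ± 0.73 in controls and 2.33 ± 0.75, 3.11 ± 0.71 and 4.08 ± 0.65 at 25, 50 and 75 mg/kg/day (SD, n = 5 each). The means thus stood in the order of dose, while each pair of neighboring groups overlapped. Relative to control the log2 difference was 0.48 at 25, 1.26 at 50 and 2.23 at 75 mg/kg/day (SE 0.40 each), or 1.40-fold, 2.39-fold and 4.69-fold. The liver signal of this probe was well above background on every array, but the reference signal under it was so on only 2 of 20. More cells that carry Lyve1 and more Lyve1 RNA per cell cannot be told apart in whole liver tissue. The 95% interval of the difference ran from 1.39 to 3.07 at the highest dose. Lyve1 was selected on this difference, so the interval is a description that makes no allowance for the selection. Before normalization, the mean spot brightness of Lyve1 in the liver channel was 240.4 in controls and 343.4, 442.7 and 976 with rising dose. These values include local background, which was 77 to 115.5 at this probe. Raw brightness at 75 mg/kg/day was also above control for the other genes on their brightest probes, such as Clec4g (9882 against 5349) and Stab1 (1955 against 1153).

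**Figure D1:**
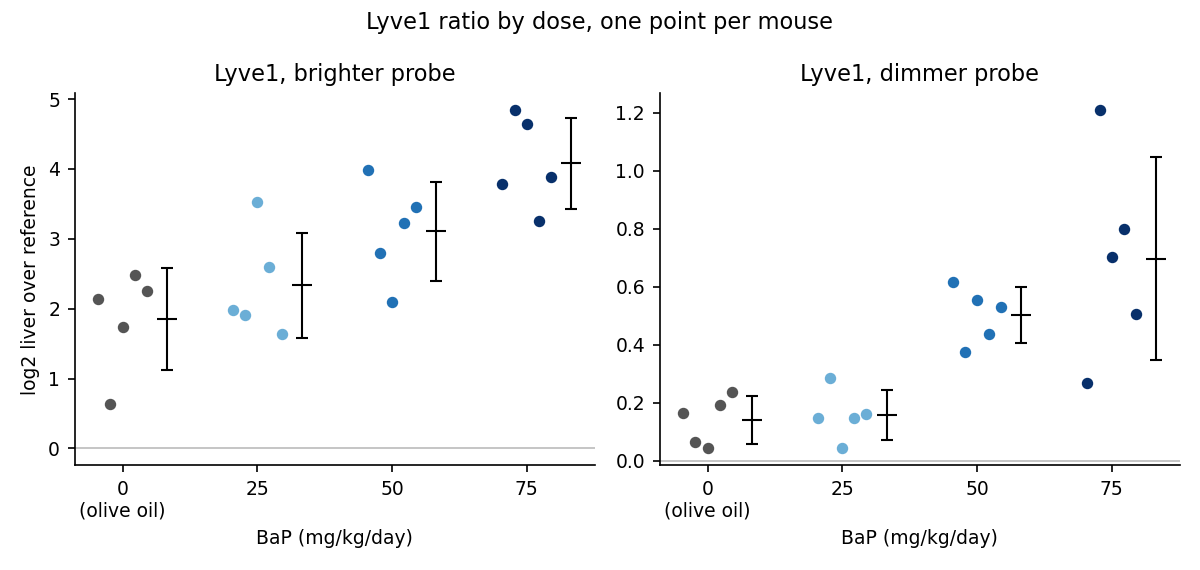
Log2 ratio of liver over reference for the 2 Lyve1 probes, by BaP dose in mg/kg/day. Points are single mice, horizontal marks with bars are group means ± SD (n = 5), and the vertical scales of the panels differ. On the brighter probe the 75 mg/kg/day arrays sit between 3.26 and 4.84, above the highest control at 2.48.

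The dimmer Lyve1 probe read 0.14 ± 0.08 in controls, 0.16 ± 0.09 at 25, 0.50 ± 0.10 at 50 and 0.70 ± 0.35 at 75 mg/kg/day (SD, n = 5 each). It was not well above background on any control or 25 mg/kg/day array, and it was so on 3 of 5 arrays at 50 and 4 of 5 at 75 mg/kg/day. Mean liver signal at this probe was 1.26-fold higher than control at 50 and 1.42-fold higher at 75 mg/kg/day. The control level here was the larger of its own value and the dimmest signal well above background on the same array. These folds are estimates from group means that include arrays not well above background, and they are not lower limits. The fitted log2 differences were 0.36 at 50 and 0.56 at 75 mg/kg/day (SE 0.12 each). At both of these doses all 5 arrays lay above all 5 controls, whereas at 25 mg/kg/day 1 of 5 did. The smaller span of this probe went with its low signal, since its mean spot brightness was 102.4 in controls and 138.6 at 75 mg/kg/day.

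Slides were compared next, because they did not hold the doses equally. On slides 1, 2 and 3 the 75 mg/kg/day array exceeded the control array of the same slide by 2.36, 2.39 and 1.65 on the brighter Lyve1 probe. On all 5 slides that held both doses, the 75 mg/kg/day array exceeded the 25 mg/kg/day array, by 1.12 to 2.23. The array of 50 mg/kg/day exceeded the control by 0.97, 0.97 and 1.84 on slides 1 to 3, and the slide 6 means differed by 1.25. At 25 mg/kg/day the same difference was 0.12, 1.27 and −0.50 on slides 1 to 3, so it did not keep 1 sign. Dose groups accounted for 63.8% and slides for 29.8% of the variance of Lyve1 over the 20 arrays, and these shares overlap because slides and doses were not balanced.

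**Figure D2:**
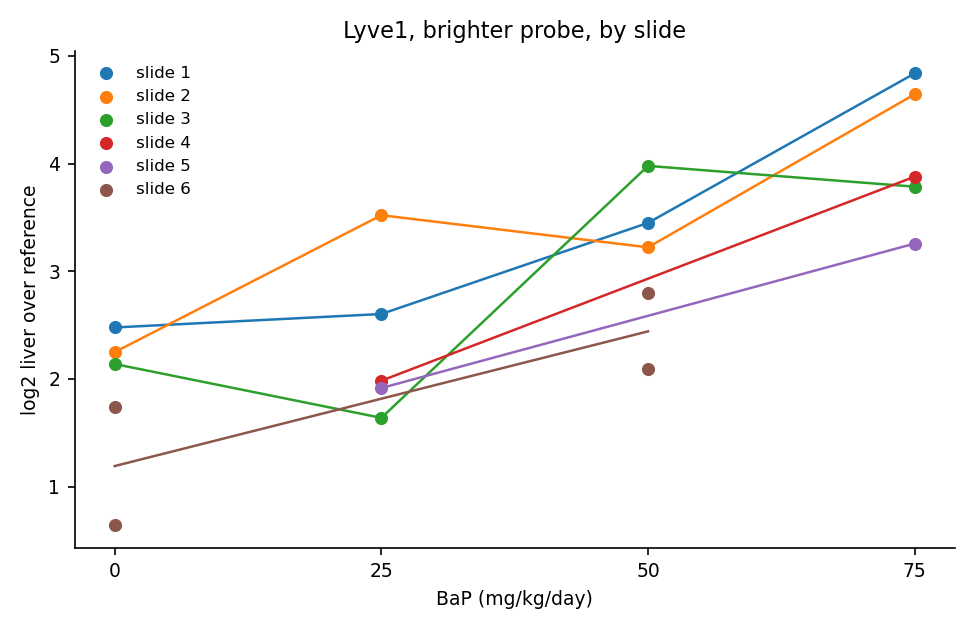
Log2 ratio of the brighter Lyve1 probe against BaP dose in mg/kg/day, with color marking the slide. Points are single mice and lines join the dose means within a slide. Every line that reaches 75 mg/kg/day ends above its own start, and the 2 control arrays of slide 6 are the lowest controls.

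Of the 10 genes, Lyve1 alone passed the call at 75 mg/kg/day (limma, adjusted p under 0.05 and over 1.5-fold), and 0.132% of the 27346 present probes were called higher. Groups that did not overlap, with every exposed array above every control, were seen in 1 of the 10 genes at 75 mg/kg/day (Lyve1), in 0 at 50 and in 1 at 25 mg/kg/day (Fcgr2b). The same held for 0.936%, 0.516% and 0.559% of present probes at these doses. Since Lyve1 was selected on the highest dose and the 3 doses share their controls, nothing is read from these counts.

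The other 9 genes differed from control by far less than Lyve1 on the scale of the ratio. All 9 differences were above 0 at each dose, from 0.03 to 0.44 at 25, from 0.19 to 0.42 at 50 and from 0.11 to 0.46 at 75 mg/kg/day, with medians of 0.23, 0.26 and 0.30. The sign was not kept under every other processing for Clec4g and Flt4 at 25 mg/kg/day, nor for Clec4g, Gpr182 and Dnase1l3 at 50 mg/kg/day. The median over all present probes was 0.00 at each dose. Averaged over the 9 genes, single arrays lay between −0.24 and 0.21 around the control mean in controls, between 0.03 and 0.54 at 25, between 0.19 and 0.37 at 50 and between 0.02 and 0.58 at 75 mg/kg/day. The exposed groups thus overlapped the controls, and no step from dose to dose like that of Lyve1 was seen in this average.

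The offset shared by the 9 genes was seen beside others. Among present probes the median difference grew with the ratio of liver over reference in controls. The 667 probes with a control ratio over 4 log2 units had a median difference of 0.30 at 75 mg/kg/day, and the 1372 probes between 2 and 4 had 0.11. The 12169 probes between 0 and 2 had 0.02, and the 13138 probes below 0 had −0.03. Clec4g and Gpr182 fell in the class over 4 and lay near its median, at 0.30 and 0.28. Stab1, Stab2, Oit3, Mrc1 and Dnase1l3, between 2 and 4, lay above theirs at 0.16 to 0.35. Fcgr2b and Flt4, between 0 and 2, also lay above theirs, at 0.46 and 0.11. Hepatocyte markers were above control in 6 of 6 genes with a median of 0.40. Slides differed too: 8 and 9 of the 9 genes were higher at 75 mg/kg/day than control on slides 1 and 2, and 1 of 9 was on slide 3. The part of these measures in the offset was not tested.

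**Figure D3:**
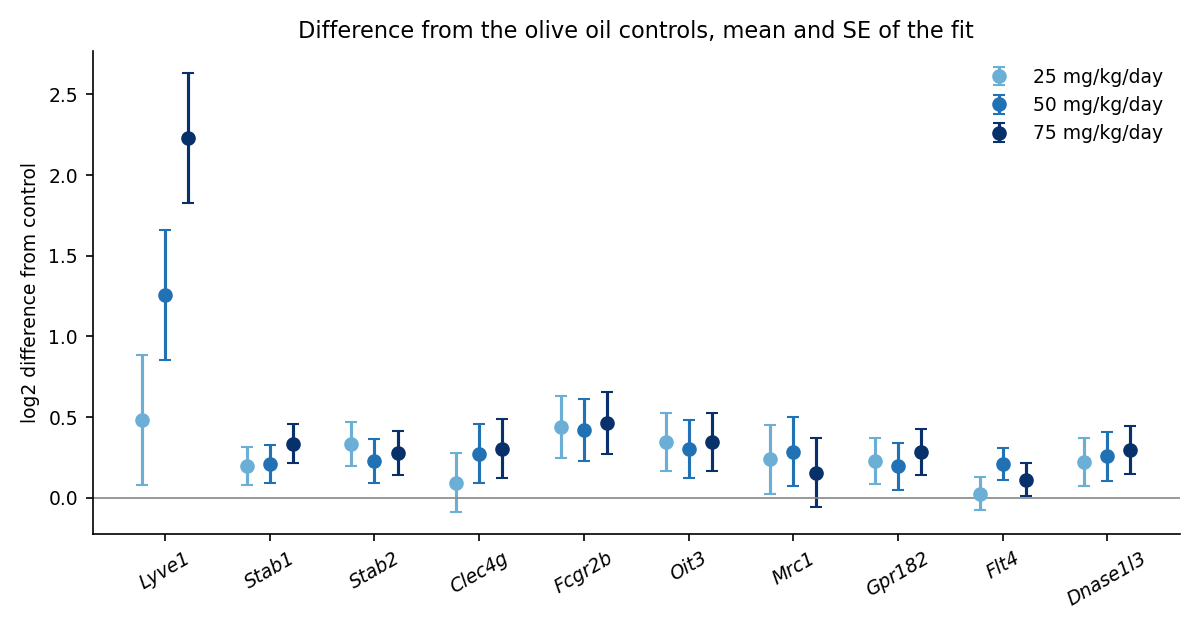
Log2 difference from the olive oil controls for each of the 10 genes (brightest probe) at 25, 50 and 75 mg/kg/day. Points are the fitted differences and bars their SE, with 5 mice per group. Lyve1 climbs from 0.48 to 2.23, whereas the other 9 genes stay between 0.03 and 0.46 at every dose.

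Among the hyaluronan and broad scavenger receptors, Stab1 and Stab2 (stabilin-1 and stabilin-2) are large endocytic receptors of the sinusoid, and stabilin-2 is the main receptor that clears hyaluronan from blood. Stab1 read 2.99 ± 0.27 in controls and 3.19 ± 0.12, 3.20 ± 0.12 and 3.32 ± 0.17 with rising dose (SD, n = 5 each). Its lowest control array, 2.54, was the same mouse that was lowest for Lyve1 (replicate 2). A dimmer Stab1 probe differed from control by 0.15, 0.26 and 0.09, without the dose order of the brighter probe. Stab2 read 3.32 ± 0.15 in controls and 3.65 ± 0.22, 3.55 ± 0.22 and 3.60 ± 0.26, with slides taking 67.5% of its variance and doses 29.7%. For both stabilins the exposed and control arrays overlapped at each dose.

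Mrc1, the mannose receptor that takes up collagen chains and glycoproteins and that Kupffer cells also carry, read 3.46 ± 0.30 in controls and 3.69 ± 0.44, 3.74 ± 0.24 and 3.61 ± 0.43 with rising dose. On slide 3 its exposed arrays lay below the control array, by 0.29, 0.42 and 0.70, and on slide 2 above it, by 1.24, 0.70 and 0.97. Its differences of 0.24, 0.29 and 0.16 from control were thus smaller than the change of sign between slides.

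Fcgr2b is the inhibitory Fc gamma receptor, which on sinusoidal endothelium removes small immune complexes. Its brightest probe, printed in 10 spots per array, read 0.99, 0.87, 0.89, 0.95 and 0.71 in the control mice, a narrower spread than in any exposed group. At 75 mg/kg/day it read 0.88, 0.96, 1.80, 1.24 and 1.84, and at 50 mg/kg/day 1.06, 1.52, 1.67, 1.44 and 0.83. The arrays at 25 mg/kg/day, from 1.00 to 1.72, lay just above the highest control at 0.99. The SD over the 10 spots of an array had a median of 0.05, against an SD of 0.46 between the 5 mice at 75 mg/kg/day. Spots of an array share its labeling, hybridization and slide, and slides took 39.6% of the variance of this probe. The dimmest of the 3 Fcgr2b probes differed from control by 0.02, 0.30 and 0.06, against 0.44, 0.42 and 0.46 on the brightest. The middle probe differed by 0.31, 0.40 and 0.33, so the dimmest probe disagreed with the others at 25 and 75 mg/kg/day. Only on the brightest did all 25 mg/kg/day arrays lie above all controls.

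Clec4g (LSECtin) is a sinusoidal C-type lectin that binds glycans on pathogens and on T cells. It read 5.81 ± 0.30 in controls and 5.90 ± 0.48, 6.08 ± 0.15 and 6.11 ± 0.18 with rising dose. One 25 mg/kg/day array, at 5.11, lay below every control, and slides took 54.6% of the variance. Its difference of 0.30 at the highest dose was about the size of the control SD.

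Oit3 encodes a zona pellucida domain protein that is found in liver and marks sinusoidal endothelium. It read 3.33 ± 0.34 in controls and 3.68 ± 0.34, 3.63 ± 0.12 and 3.68 ± 0.35 with rising dose. The lowest control array, at 2.76, was again replicate 2. A dimmer Oit3 probe differed from control by 0.16, 0.47 and 0.15, against 0.35, 0.30 and 0.35 on the brighter, so the probes disagreed in their dose pattern. Dnase1l3, a secreted nuclease that digests chromatin in blood, read 3.46 ± 0.15 in controls and 3.68 ± 0.38, 3.72 ± 0.19 and 3.76 ± 0.19. Neither gene separated the exposed from the control arrays at any dose.

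The 2 signaling and chemokine receptors of the set were likewise close to control. Gpr182, an atypical chemokine receptor of endothelium, read 5.26 ± 0.27 in controls and 5.49 ± 0.20, 5.46 ± 0.25 and 5.55 ± 0.21 with rising dose. Flt4 (VEGFR3), the receptor of Vegfc and Vegfd that drives growth of lymphatic vessels, read 0.36 ± 0.07 in controls and 0.39 ± 0.10, 0.57 ± 0.22 and 0.48 ± 0.14. Flt4 was dim, being well above background on 1 of 5 control arrays and on 4 or 5 of 5 arrays of each exposed group, so its small differences rest on few controls with a clear signal.

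**Figure D4:**
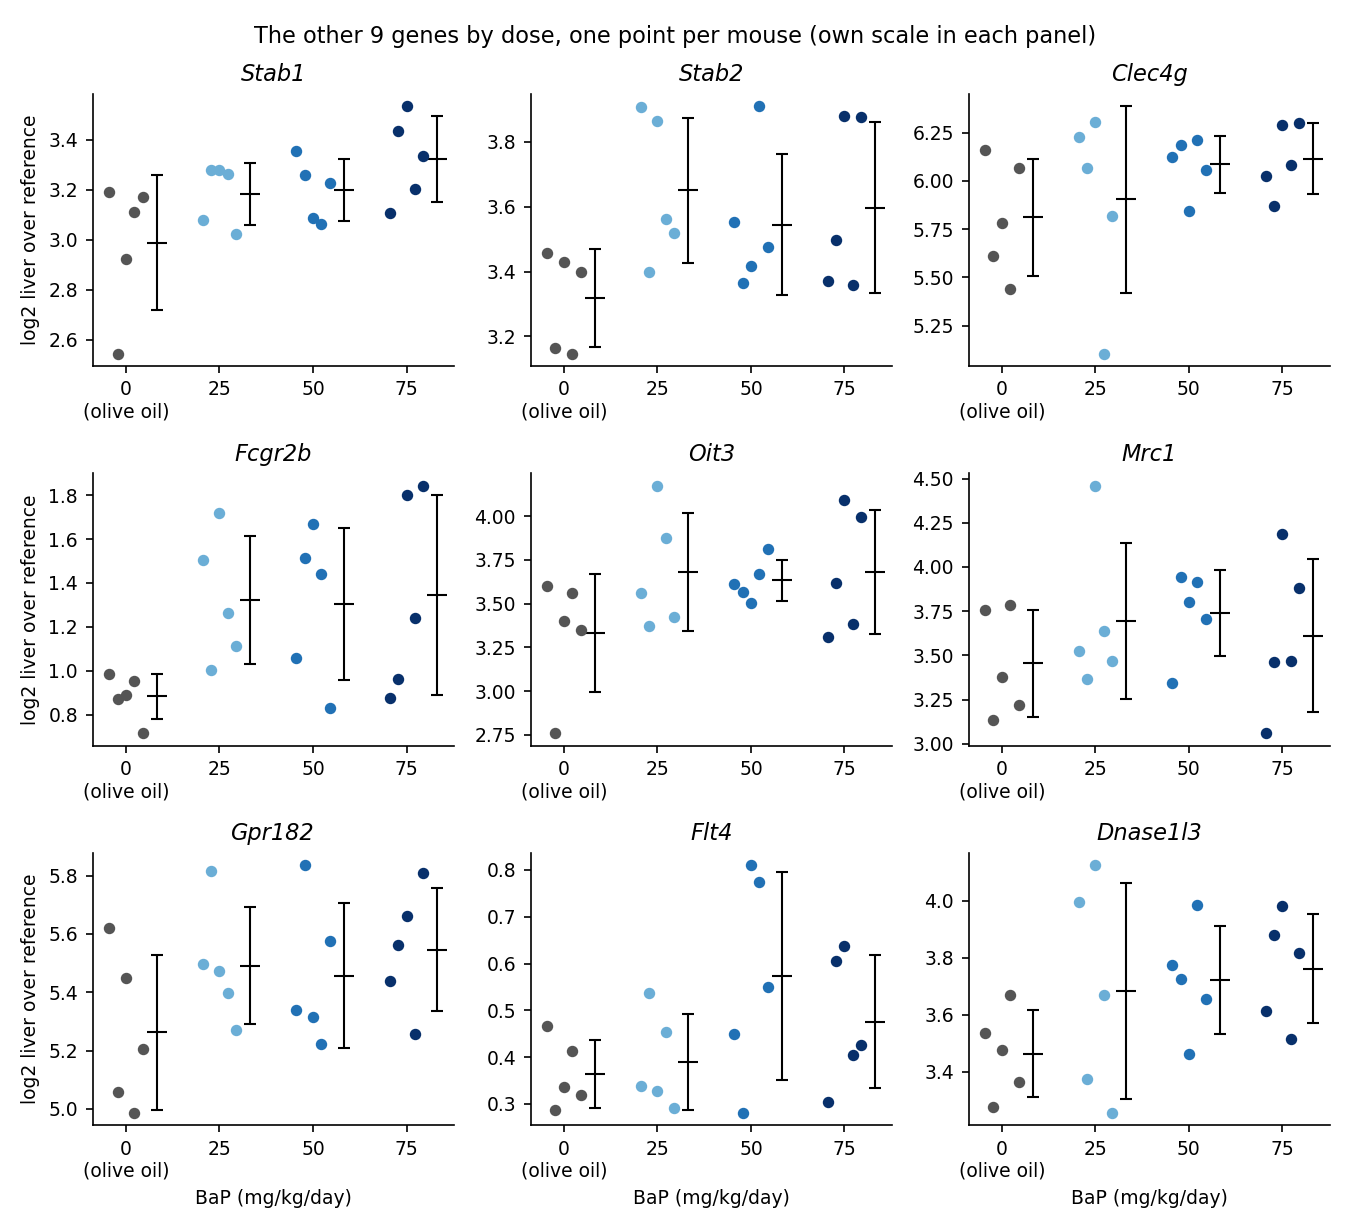
Log2 ratio of liver over reference for the 9 genes other than Lyve1 (brightest probe), by BaP dose in mg/kg/day, with a separate vertical scale in each panel. Points are single mice and bars are group means ± SD (n = 5). Exposed and control points overlap in every panel at 50 and 75 mg/kg/day, and Fcgr2b controls, from 0.71 to 0.99, span less than its exposed groups.

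The difference in means from 25 to 50 mg/kg/day used no control array and no array of the dose that selected Lyve1, and it could be tested. Its SE, interval and p-value did use those arrays, since all groups entered 1 model and shared its estimate of the spread. None of the 10 genes passed (limma, adjusted p between 0.637 and 0.991, n = 5 per group). Over all present probes the share called was 0%, with 0 of 27346 called and 2266 at an unadjusted p under 0.05. For the brighter Lyve1 probe the difference was 0.77 (SE 0.40, 95% interval −0.07 to 1.62, adjusted p = 0.637), and 1 of 5 arrays at 50 lay above all 5 at 25 mg/kg/day. For the dimmer probe it was 0.34 (SE 0.12, 95% interval 0.09 to 0.60, adjusted p = 0.488 by limma). All 5 arrays at 50 lay above all 5 at 25 mg/kg/day on this probe, as was so for 1.03% of present probes. The other 9 genes differed by −0.11 to 0.18, with 5 of 9 above 0. With only the 25 and 50 mg/kg/day arrays in the fit, the brighter Lyve1 probe had an adjusted p of 0.599 (limma). On the brighter probe a rise of Lyve1 from 25 to 50 mg/kg/day was therefore not resolved with 5 mice per group. Its interval in the model of all groups holds both 0 and a change of over 1 log2 unit. The interval of the dimmer probe lies above 0, but that probe did not pass after adjustment. It was not well above background on any 25 mg/kg/day array. Within slides 1 to 3 the difference was 0.85, −0.30 and 2.34 on the brighter probe and 0.38, 0.39 and 0.45 on the dimmer.

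A second question that the selection did not use was whether the ratios of different genes varied together over the arrays of a dose. Each array was expressed as its deviation from the mean of its dose group, and the deviation of Lyve1 was correlated with that of the other 9 genes over the 20 arrays, with permutation within doses. Stab1 (r = 0.765, rho = 0.761), Oit3 (r = 0.748, rho = 0.726) and Dnase1l3 (r = 0.695, rho = 0.659) passed after Benjamini-Hochberg adjustment over the 9 genes (permutation test, two-sided, adjusted p = 0.00243, 0.00495 and 0.00495 for r and 0.00198, 0.00675 and 0.013 for rho). The correlations remained 0.726, 0.601 and 0.61 without the 2 arrays farthest from the median, and 0.724, 0.624 and 0.701 once slide means were also removed. Arrays with a higher Lyve1 ratio than the mean of their dose group thus tended to have higher ratios for these 3 genes. Each array held 1 mouse, so traits of the mouse and of the array cannot be told apart here. Arrays were permuted across slides, so shared slide effects are part of these p-values. The correlations with slide means removed were not tested.

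The other 6 genes did not pass: r was 0.438 for Mrc1, 0.394 for Stab2, 0.151 for Clec4g, 0.126 for Gpr182, 0.105 for Flt4 and −0.01 for Fcgr2b (permutation test, adjusted p between 0.178 and 0.984). Removing slide means as well moved r to 0.511 for Gpr182, 0.488 for Clec4g, 0.359 for Mrc1, 0.347 for Stab2, 0.195 for Fcgr2b and −0.178 for Flt4, so the gap between Gpr182 or Clec4g and the 3 genes that passed depended on slide. The differences between the correlations were not tested. Ratios of 1 array share its reference channel and its loess curve, and high correlations with Lyve1 were common. Among 12809 genes ranked by this correlation, Stab1 stood at 69, Oit3 at about 109 and Dnase1l3 at about 291. The slope was shallow as well, since Stab1 had an SD of 0.18 within doses against 0.71 for Lyve1. Among the other 9 genes the 36 pairs correlated at −0.138 to 0.816, with a median of 0.301.

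**Figure D5:**
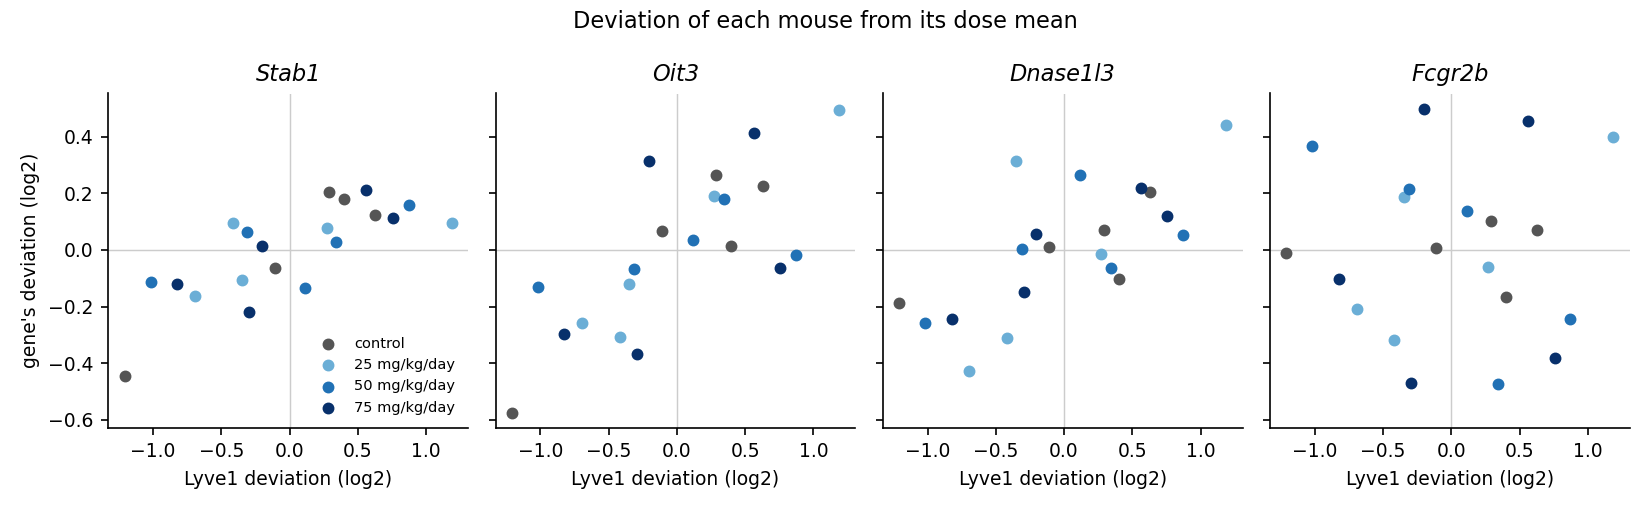
Deviation of each mouse from its dose mean, in log2 units, for Lyve1 (horizontal) against Stab1, Oit3, Dnase1l3 and Fcgr2b (vertical), with color marking the dose. The 20 points rise together in the first 3 panels (r = 0.765, 0.748 and 0.695), and in the Fcgr2b panel they do not (r = −0.01).

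Across all 20 arrays, dose differences included, the 10 genes whose ratios most resembled the brighter Lyve1 probe were Mmrn2 (r = 0.88), Phlda3 (0.87), Zmat3 (0.86), Ccng1 (0.86), Robo4 (0.85), Endou, Tbx2, Polk, Elk3 and Ctla2a (0.84). Mmrn2 and Robo4 are endothelial genes, and Phlda3, Zmat3, Ccng1 and Polk are known targets of p53. Of the 10, 4 were called at 75 mg/kg/day, namely Mmrn2 (log2 difference 1.36), Endou (1.16), Phlda3 (0.94) and Zmat3 (0.76), and Lyve1 exceeded each of them. Stab1 was the most similar of the selected genes, with r = 0.80. When dose means were removed, Robo4 kept r = 0.81 and Mmrn2 0.65, and the 10 most similar genes became Tmem35a (r = 0.90), Cyp4b1 (0.88), N4bp2l2 (0.86), Pcdh12, Vmn1r63, Anxa3, Olfr130, Mrps30, Ndufa9 and Efemp1 (0.82), of which Pcdh12 is an endothelial protocadherin. These likenesses are descriptions over arrays that share doses and slides.

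All 10 genes read above the reference RNA in the control livers, and 9 were called higher (limma, adjusted p at most 5.85e-06 and over 1.5-fold, against 23.7% of present probes called higher). Their control ratios were 5.81 for Clec4g, 5.26 for Gpr182, 3.46 for Mrc1, 3.46 for Dnase1l3, 3.33 for Oit3, 3.32 for Stab2, 2.99 for Stab1 and 0.88 for Fcgr2b. Lyve1 signal in the reference was not well above background on any control array. With the reference raised to the dimmest signal well above background where it lay below, control liver held on average 3.46-fold more Lyve1 signal. That value allows for dim reference signal and not for the spread between arrays (SE 0.29 log2 units for the ratio of 1.85). Flt4 passed the adjusted p (limma, 0.000109) at a ratio of 0.36, under the fold limit. Dyes were not swapped, so a dye effect of a probe is part of each of these ratios and of their p-values. The dimmer Lyve1 probe, at 0.14, did not differ from the reference by more than its error (SE 0.09, adjusted p = 0.149), and neither channel was well above background there.

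Genes around the 10 were read from lists, counting genes with a present probe, with the 75 mg/kg/day difference beside a median of 0.00 over all present probes. The lists were chosen with earlier results of these data known. Their calls and p-values at 75 mg/kg/day, the comparison that selected Lyve1, are therefore descriptions. Of 9 present genes of hyaluronan synthesis and breakdown 0 were called, with a median of 0.06. The cell surface hyaluronidase Cemip2 differed by 0.46 and the synthase Has2 by −0.47, the latter with liver signal well above background on 3 of 20 arrays. Hyal1 and Hyal2, which cut hyaluronan, differed by 0.32 and 0.06, and the other hyaluronan receptor Cd44 by 0.03. Cemip2 also stood in the order of dose, at 0.09, 0.33 and 0.46.

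Of 11 ligands and signaling partners of the set, 0 were called (median 0.06), with 0.69 for Gdf15, 0.53 for the Fc receptor gamma chain Fcer1g and −0.39 for Cxcl12. Vegfc and Vegfd, the ligands of Flt4, differed by 0.11 and −0.003. Of 19 relatives in the same gene families 0 were called (median 0.12), with 0.60 for Ackr1, 0.58 for Kdr and 0.43 for Fcgr3. Of 9 other scavenger receptors 1 was called, Marco, a class A receptor of macrophages, at 2.19 (SE 0.30, adjusted p = 0.00148 by limma), with −0.78 for Colec12 and 0.47 for Cd36. Marco was 0.49 and 1.71 above control at 25 and 50 mg/kg/day, a dose order like that of Lyve1.

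Of 16 further genes of sinusoidal endothelium 0 were called (median 0.18), with 0.81 for Fgd5, 0.62 for Wnt2 and 0.47 for Cd36. Of 19 general endothelial genes 2 were called, Mmrn2 at 1.36 (SE 0.14, adjusted p = 1e-04) and Icam2 at 0.89 (SE 0.13, adjusted p = 0.00325, both by limma), and Esam differed by 0.86. This list had a median of 0.51 at 75 and of 0.36 and 0.32 at 25 and 50 mg/kg/day, 17 of 19 genes were above 0 at 75 mg/kg/day, and in 4 (Mmrn2, Icam2, Robo4 and Ramp2) all exposed arrays of that dose lay above all controls. Over all present probes the shares were 0.132% called higher and 0.936% without overlap. Since the list was chosen with earlier results known, nothing is read from these counts. Its mean per array ran from −0.38 to 0.24 in controls and from 0.23 to 0.78 at 75 mg/kg/day, with an overlap at the border. Against these, Pecam1 and Cd34 differed by 0.22 and 0.15, and Flt1 and Tek by −0.04 and −0.11. The difference between this list and the 9 scavenger genes was not tested.

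Lymphatic endothelium also carries Lyve1. Of 6 present lymphatic markers 0 were called (median 0.01), with 0.53 for Reln and −0.35 for Pdpn, and the master regulator Prox1 differed by −0.04. The lymphatic list averaged −0.20 to 0.11 per array in controls and −0.21 to 0.26 at 75 mg/kg/day. Foxc2 was not well above background on any array.

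Of 13 Kupffer cell markers Marco alone was called (median 0.08), with 0.35 for C1qb and −0.34 for Cd163, and Clec4f, Vsig4 and Timd4, which mark resident Kupffer cells, differed by 0.12, 0.03 and 0.05. The list averaged −0.28 to 0.19 in controls and −0.06 to 0.44 at 75 mg/kg/day. Of 11 stellate cell markers 0 were called (median 0.34), with 0.80 for Dcn, 0.76 for Ngfr and 0.53 for Reln, and averages of −0.39 to 0.28 in controls and 0.09 to 0.40 at 75 mg/kg/day. Of 6 hepatocyte markers 0 were called (median 0.40), with 0.49 for Apoa1, 0.49 for Tat and 0.44 for Alb, and averages of −0.52 to 0.72 in controls and 0.20 to 0.53 at 75 mg/kg/day. The part of other cell types in the Lyve1 difference was not tested. Among the genes of these lists, Marco at 2.19 came nearest to the 2.23 of Lyve1.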

How the data were processed

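The authors hybridized each liver RNA with reference RNA on a two-color array and deposited, per the file headers, median spot and background intensity without normalization, processed intensity from the scanner software, and log2 ratios normalized by LOWESS. Dyes were not swapped. Here median intensities were background corrected (normexp, offset 50), loess normalized within arrays and averaged per probe, with R 4.3.3 and limma 3.58.1, and figures were drawn with matplotlib 3.10.9. Presence followed the study's rule (signal over the trimmed mean plus 3 trimmed SDs of 153 negative controls on 4 or more arrays of a group). The study removed 1 unnamed sample, and all 20 were kept. Probes were named through RefSeq accessions (23374 of 41174 probes). A gene is given by its brightest present probe. All groups entered 1 limma model, with Benjamini-Hochberg adjustment over 27346 present probes. Correlations used 100000 permutations within doses. The fit was tested on simulated data. Members, lists and tests were chosen with earlier results of these data known. Named genes are all members, the 10 genes most like Lyve1, and in each list those called and the 3 largest differences at 75 mg/kg/day, of which 1 is not reported here. Further list genes are named for known roles, with their values in view. Replicates were separate mice. The number of arrays limits the precision.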

Additional observations from a re-analysis of the deposited data

Results flagged for a closer look

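Every probe of the 10 genes was examined in each dose group for a single array far from the other 4 (gap over range above 0.71, Dixon's 95% value for 5 samples). Of 60 groups 2 met this, and chance gives about 1 in 20. Control replicate 1 read 0.98 on the second Fcgr2b probe, where the nearest control read 0.76. Replicate 8 of the 25 mg/kg/day group read 4.46 on Mrc1, where the nearest array of its group read 3.64. That mouse was also the highest of its group for Lyve1, Stab1, Clec4g, Fcgr2b, Oit3 and Dnase1l3 on their brightest probes, and not for Stab2, Gpr182 or Flt4.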

How the results depend on the processing

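The Lyve1 differences stayed above 0 under all 33 alternatives, at 0.04 to 0.66 for 25, 0.94 to 1.51 for 50 and 1.79 to 2.51 for 75 mg/kg/day. With slide as a fixed block the highest dose gave 2.09. As a description of the comparison that selected Lyve1, its call at 75 mg/kg/day was absent under 7 of the 33: with scanner software signals, with only the compared groups in the fit, without slide 1 (chosen after seeing the data), and without control replicate 2 or replicates 17, 18 or 20. Leaving out each array in turn gave 1 to 2 genes lying wholly above the controls at 75 mg/kg/day, the second appearing without replicate 16. The count for 50 against 25 mg/kg/day was 0 throughout, and 8 to 10 genes were above the reference RNA. With scanner signals Clec4g lay below control at 25 mg/kg/day (−0.16), and Clec4g, Gpr182 and Dnase1l3 did so at 50 mg/kg/day (−0.06, −0.11 and −0.13). Flt4 at 25 mg/kg/day lay below 0 (lowest −0.01) under 3 of 32. Dim signal limits the second Lyve1 probe and Flt4. The groups share no replicate numbers, so pairing was by slide alone.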
